A study of Mus musculus with 3 samples.

Results

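Day 8 reprogramming intermediates of old wild-type (WT) and young WT mice were compared, array against array. The cells were tail-tip fibroblasts, connective tissue cells grown out from the tip of the tail, into which the reprogramming factors Oct4, Sox2, Klf4 and c-Myc had been introduced. Donors were 22 months old in the old WT group and 2 months old in the young WT group. Members were chosen by their array titles, which gave 2 of the 3 samples of the series. The third sample came from donors of 22 months that lack p16 (old p16-/-), and its values are given only beside a result. Each group is represented here by a single array, although the series text speaks of repeat experiments on other donors. The labels do not say how many donors went into an array, by what vector the factors were introduced, or what strain the mice were.

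Because each side is a single array, the spread between mice is unknown; differences are described by size alone, without a test. Each value is a processed signal, a linear spot intensity in arbitrary units. A ratio is the difference in log2 signal, old WT minus young WT, after subtracting each array's 75th percentile (2146 on the young array, 2055 on the old array). A log2 ratio of 1 is therefore a 2-fold difference. Where a pair of signals is given for a gene, the young WT array comes first and the old WT array second, and a number in brackets after them is the log2 ratio. Probes spotted 10 times over show the precision of the measurement itself: for 175 of them at signals of at least 1000, the median SD of a log2 ratio between single spots was 0.0689. That SD covers spotting and scanning on these arrays and not the variation between mice or cultures.

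Of 20848 genes on the array, 14551 were well above background on at least 1 WT array. Among these, 429 (2.95%) were higher in old WT cells by 2-fold or more and 463 (3.18%) were lower by as much. Of those 892 genes, 440 were well above background on only 1 of the 2 arrays, so their ratios are bounds. The description below rests on the 8720 genes whose signal reached 1000 on 1 WT array or both, called bright genes. A gene that reached 1000 on 1 array only is counted through the array where its signal is higher. At that threshold 103 bright genes (1.18%) were higher in old WT cells and 49 (0.562%) lower. Ratios of all bright genes lay near 0, with a median of -0.02. Of these ratios 43.2% were above 0 and 56.8% below.

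**Figure D1:**
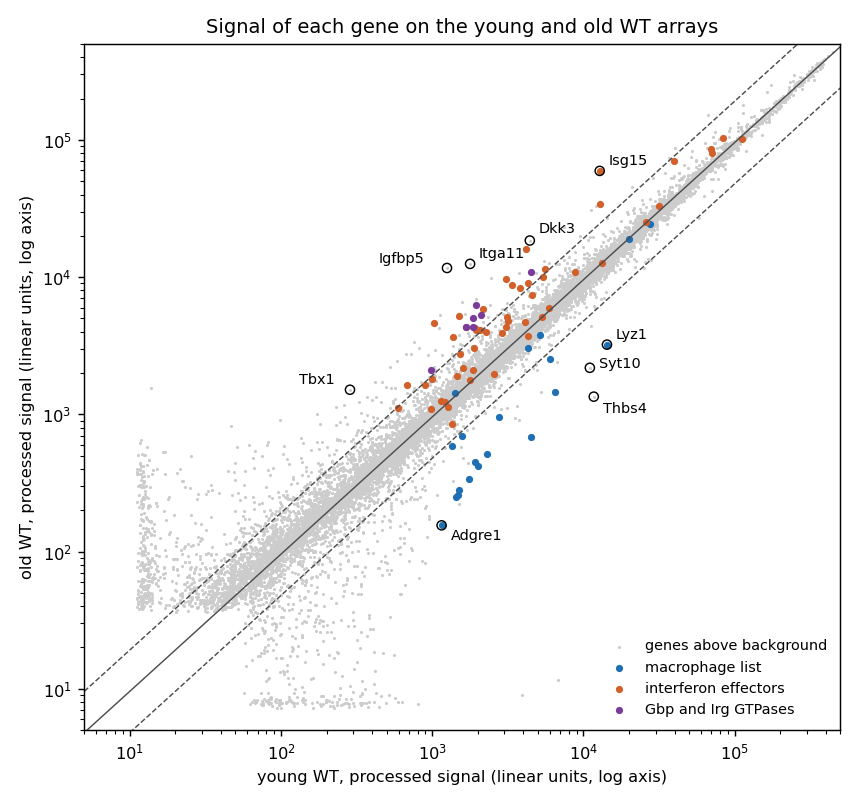
Processed signal of each gene well above background on at least 1 WT array, young WT on the x axis and old WT on the y axis, both on log axes. The solid line marks equal levels after scaling and the dashed lines a 2-fold difference; coloured points are bright members of 3 gene lists, and circled genes are named. Most interferon effectors lie on or above the solid line, and 15 of the 20 macrophage genes lie below the lower dashed line.

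Expression of several fibroblast markers was checked first, because the cells are labelled as fibroblasts. All 7 defining markers were well above background on both arrays. The signal of Vim, an intermediate filament protein of mesenchymal cells, was 215385 on the young array and 204077 on the old array. The collagen chain gene Col1a2 gave 269481 and 287389. Dcn, a small matrix proteoglycan, gave 26079 and 25431. Their log2 ratios of -0.02, 0.15 and 0.03 were close to 0. Others were higher in old WT cells: Lum, a proteoglycan of collagen fibrils, gave 2013 and 3654 (0.92), and Pdgfra, a growth factor receptor of mesenchymal cells, 651 and 884 (0.50). Thy1, a surface protein that is lost early in reprogramming, had a signal of 69467 on the young array and 52045 on the old array, a log2 ratio of -0.35, and 3287 on the old p16-/- array. A longer pluripotency list held 12 bright genes, 9 of them core factors and late markers, such as Fgf4 at 2046 and 2201 (0.17). None of the 12 was 2-fold apart. The 3 defining markers of pluripotent cells were low on both arrays: Zfp42 and Esrrb were not well above background on either, and Nanog gave 264 and 217. Probes for Pou5f1, which encodes Oct4, and for Sox2 were also not well above background on either WT array. Klf4 gave 1434 and 1708 (0.31) and Myc 2456 and 2387 (0.02). Whether these probes detect transcripts of the introduced factors was not tested.

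Sex-linked transcripts differed between the arrays. On the Y chromosome, Eif2s3y gave 6819 and Ddx3y 3949 in young WT cells, and neither was well above background in old WT cells. Xist, the RNA that silences an X chromosome, gave 13.8 on the young array and 1548 on the old array and was well above background on the old array only of this pair, at least 29.2-fold higher. Donor sex and age therefore cannot be told apart for any difference given here. Genes elsewhere on the X chromosome showed no general shift, with a median of -0.03 over 263 bright genes, and the medians of the 19 autosomes ran from -0.04 to -0.01. X-linked genes known to escape silencing had ratios of 0.49 for Kdm5c, 0.49 for Pbdc1 and 0.24 for Ddx3x. Eif2s3x gave -0.90 by its brightest probe and 0.72 by another.

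Interferons are secreted proteins that cells release on sensing viral or misplaced nucleic acid. They bind receptors that act through Jak kinases, and a complex of Stat and Irf factors then switches on a large set of antiviral genes by binding a repeated GAAA element in their promoters. In fibroblasts this set is held at a low basal level and can be raised within hours. Macrophages are phagocytes of blood or tissue origin that are known to accompany primary cultures from skin.

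Promoters of 6 interferon-regulated genes that were at least 2-fold higher in old WT cells are shown here, because the GAAA element is what a reader would look for in genes that share this regulation. They were chosen after their values were seen, and only promoters that hold a match could be shown. Each line is the 140 bases before the RefSeq transcription start on the GRCm38.p6 build, written from 5′ to 3′ on the strand of the gene, at chr4:156200819-156200958 (minus strand) for Isg15, chr8:71537473-71537612 (minus) for Bst2, chr19:34640749-34640888 (plus) for Ifit1, chr3:142620523-142620662 (plus) for Gbp2, chr11:48871421-48871560 (minus) for Irgm1 and chr5:120907526-120907665 (minus) for Oas1a. Capitals mark matches to GAAANNGAAA or, for the other strand, TTTCNNTTTC, in which N is any base, and overlapping matches are merged.
Isg15: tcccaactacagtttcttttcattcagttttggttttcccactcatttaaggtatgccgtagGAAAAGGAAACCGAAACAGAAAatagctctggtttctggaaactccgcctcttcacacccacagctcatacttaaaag
Bst2: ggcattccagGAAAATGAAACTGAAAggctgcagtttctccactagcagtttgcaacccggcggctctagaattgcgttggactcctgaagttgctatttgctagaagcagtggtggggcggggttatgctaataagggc
Ifit1: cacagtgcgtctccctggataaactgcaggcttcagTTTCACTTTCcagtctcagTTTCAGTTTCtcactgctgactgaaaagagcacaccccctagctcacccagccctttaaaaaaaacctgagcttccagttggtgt
Gbp2: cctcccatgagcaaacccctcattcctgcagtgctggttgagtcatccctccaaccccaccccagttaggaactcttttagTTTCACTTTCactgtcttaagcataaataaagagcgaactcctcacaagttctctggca
Irgm1: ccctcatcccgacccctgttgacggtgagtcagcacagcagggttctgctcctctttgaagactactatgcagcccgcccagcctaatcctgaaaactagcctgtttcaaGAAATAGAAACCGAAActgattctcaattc
Oas1a: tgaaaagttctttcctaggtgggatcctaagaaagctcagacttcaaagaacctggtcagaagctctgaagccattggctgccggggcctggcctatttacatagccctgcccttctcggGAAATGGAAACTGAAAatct

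The Isg15 window holds 3 overlapping matches, the nearest 66 bases before the start. In Irgm1 and Oas1a the matches lie closer, with the nearest 24 and 14 bases before the start. Among all 32851 RefSeq promoters of 300 bases (250 before the start and 50 after it), 1131 (3.44%) hold at least 1 match on either strand. Of the 103 bright genes at least 2-fold higher in old WT cells, 76 had a promoter entry and 20 of these (26.3%) held a match. Of the 49 lower genes, 36 had an entry and 2 (5.56%) held one. Among all bright genes with an entry the share was 254 of 7043 (3.61%). A match describes these letters and does not show that a factor bound there. Of the 20 genes with a match, 7 belong to the interferon effector list described next. The remaining 13 were Mmp13, Apol9a, Apol9b, Gbp3, Irgm1, Irgm2, Igtp, Tgtp2, Sgk1, Ddx58, Ifih1, Igsf10 and Cd59a. Among bright interferon effectors with an entry, 7 of 12 at least 2-fold higher (58.3%) held a match. Of those within 2-fold, 9 of 30 (30.0%) held one.

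Interferon effectors are the antiviral proteins made at the end of the pathway. Of 76 on the array, 52 were bright; 17 of these were at least 2-fold higher in old WT cells, none was at least 2-fold lower and 46 had a ratio above 0. Their median log2 ratio was 0.75, against -0.02 for all bright genes, of which 1.18% were at least 2-fold higher. The list was drawn up with earlier results of these arrays known. Isg15, a ubiquitin-like protein attached to newly made proteins, had a signal of 12802 on the young array and 59455 on the old array and 4766 on the old p16-/- array. Its log2 ratio was 2.28, a 4.85-fold difference, and a second probe gave 2.39. Usp18, the protease that removes Isg15 and damps the receptor, gave 3064 on the young array and 9643 on the old array, a ratio of 1.72. The old WT array was the highest of the 3 for both genes.

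Within the effectors the size of the difference varied by family. In the Ifit family, which binds foreign RNA, Ifit3 gave 2156 on the young array and 5859.9 on the old (1.50). Rtp4, an interferon-induced chaperone of membrane receptors, gave 4199 on the young array and 16080.2 on the old array (2.00), and Bst2, which tethers budding virus to the cell surface, 12812 and 33932 (1.47). For each of the 3 the old WT array was the highest and the old p16-/- array the lowest. The Oas enzymes make the signal that activates RNA decay. Oasl2 of that family gave 1506 on the young array and 5238 on the old array (1.86), and Oas1a 4272 and 9076 (1.15). Other members differed less. Ifi27, at 83132 on the young array and 103841 on the old array, had a ratio of 0.38. Ifitm3, which blocks viral entry, gave 70096 and 86121 (0.36), and its neighbour in the family Ifitm2 31636 and 32783 (0.11). Among effectors, the 8 bright Oas and RNA decay genes had a median of 0.90 and the 23 bright Parp, Trim, Schlafen and other genes one of 0.55. Near-identical copies exist within the Ifit and Oas families, so a probe may read more than 1 of them.

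The Gbp and Irg GTPases attack the membranes of vacuoles that hold microbes and are known as targets of interferon gamma above all. All 7 bright members were at least 2-fold higher in old WT cells, against 1.18% of all bright genes, with a median of 1.40. Gbp3 gave 1862 on the young array and 5038 on the old array (1.50) and Gbp2 1684 and 4302 (1.41). Gvin1, a very large GTPase of a separate family that was listed with the Irg group, gave 1948 on the young array and 6231 on the old array (1.74, second probe 1.86). Of the Irg group itself, Irgm2 gave 2109 and 5315 (1.40), Irgm1 4514 and 10875 (1.33), Igtp 1856 and 4315 (1.28), and Tgtp2 977 and 2121 (1.18). Every bright member of these families was thus higher in old WT cells. Tgtp2 reached a signal of 1000 on the old array only, so it was counted through the array where it is higher. Among members under 1000, Gbp7 gave 172 and 342 (1.05), and Ifi47 586 and 889 (0.66), while Gbp6 (0.41), Gbp9 (0.02) and Gbp5 (-0.08) were within 2-fold. Irgc1, a relative with testis-biased expression, gave 815 on the young array and 64.2 on the old array (-3.60), also under the signal of 1000.

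Upstream of the effectors, no interferon gene was bright, so the cytokines themselves could not be compared at that signal. The 8 bright receptor chains and Jak kinases lay between -0.28 and 0.29, with a median of -0.04, and Jak1 gave 22568 and 20744 (-0.06). The factors that carry the signal to the nucleus were mixed. Irf7, which drives the interferon alpha genes, gave 335 on the young array and 1018 on the old array, a ratio of 1.66. Stat2 gave 4951 and 8522 (0.85) and Irf9 5282 and 8907 (0.82), both short of 2-fold. Irf3, which acts before any interferon is made, gave 20884 and 19849.8 (-0.01), and Stat3 25235 and 26035 (0.11). At signals under 1000, Irf5, which acts downstream of Toll-like receptors, gave 175 and 82.7 (-1.02). Irf8, a factor of myeloid cells, gave 384 on the young array and was not well above background on the old array, a bound of -3.37.

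Among sensors of nucleic acid, those for RNA and those for DNA are described apart. Of the 5 bright RNA sensors, 3 were at least 2-fold higher, against 1.18% of all bright genes. They were Zbp1 at 2164 on the young array and 4709 on the old array (1.18, second probe 1.30), Ifih1, which encodes MDA5, at 1569 and 3196 (1.09), and Ddx58, which encodes RIG-I, at 5930.0 and 12664 (1.16). A second Ddx58 probe gave -0.15, so the 2 probes of this gene disagree. Mavs, the adaptor that both helicases use, gave 11007 and 9959.9 (-0.08). None of the 6 bright DNA sensors was 2-fold apart, and their median was -0.12. Sting1, the adaptor of the cytosolic DNA pathway, gave 17849 and 14457 (-0.24), and Trex1, a nuclease that removes stray DNA, 10809 and 11224 (0.12). The PYHIN family, which includes DNA-binding proteins, had 5 bright members with a median of 0.53 and none at 2-fold. Its brightest member Ifi204 gave 11633 and 19443 (0.80).

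Antigen presentation, by which cells show peptides to T cells, was higher in old WT cells by smaller amounts. Of 15 bright genes, 14 had a ratio above 0, against 43.2% of all bright genes. At least 2-fold higher were 2 of the 15, against 1.18%, with a median of 0.33. B2m, the light chain shared by class I molecules, gave 65653 on the young array and 87242 on the old array (0.47). The heavy chains H2-K1 and H2-D1 had ratios of 0.29 and 0.13. Psmb8, a subunit of the immunoproteasome, gave 528 and 1120.1 (1.15), and was counted as bright through the old array only. H2-DMb1, which loads peptides onto class II molecules, gave 1359.9 and 2755 (1.08), and the class II chain H2-Ab1 263 and 957 (1.93), under the signal of 1000.

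**Figure D2:**
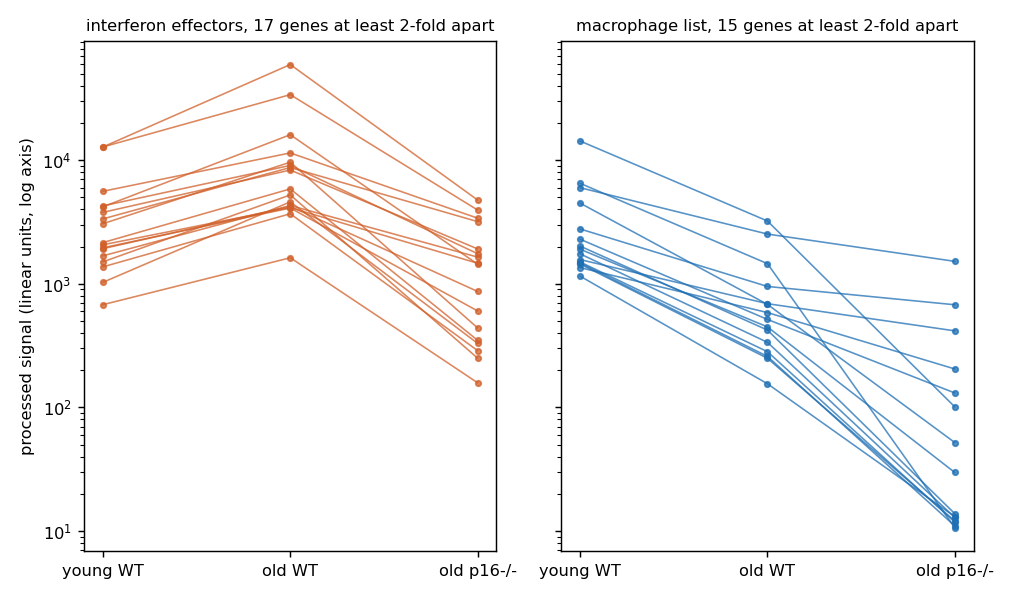
Processed signal (log axis) on the 3 arrays for the interferon effectors at least 2-fold higher in old WT cells (left, 17 genes) and the macrophage genes at least 2-fold lower (right, 15 genes), each line a gene. The unscaled signals of the interferon effectors are highest on the old WT array and lowest on the old p16-/- array, but Gbp2 is lowest on the young array once scaled; the macrophage genes are highest on the young WT array and lowest on the old p16-/- array.

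Of the gene lists examined, the macrophage list held the most bright genes at least 2-fold lower in old WT cells. Of 83 on the array 62 were counted, and 47 of those were at least 2-fold lower, against 3.18% of all genes counted. None was at least 2-fold higher. Of the 20 bright members 15 were at least 2-fold lower, against 0.562% of all bright genes, and 19 had a ratio below 0, with a median of -2.06. The summed signal of the 83 genes was 123827 on the young array, 69067 on the old array and 32390 on the old p16-/- array. A large part of each sum came from Arhgdib, listed as a pan-leukocyte or signalling gene, and Itgam. Arhgdib gave 27397, 24378 and 4685 on the 3 arrays, and Itgam 19992, 19071 and 14934. Their brightest probes had ratios of -0.11 and -0.01, so the sums do not follow the typical member. In RNA from a whole culture, fewer cells of a type and less RNA per cell cannot be told apart.

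By role, the macrophage receptors were led by Adgre1, which encodes the F4/80 surface marker. It gave 1153 on the young array and 155 on the old array (-2.83, second probe -2.49) and 13.1 on the old p16-/- array. Lilrb4a, an inhibitory receptor of myeloid cells, gave 4493 on the young array and 681 on the old array (-2.66), and Tyrobp, the adaptor that many myeloid receptors signal through, 1747 and 336 (-2.32). All 3 were much lower on the old array. The lipid-sensing receptor Trem2, a partner of Tyrobp, gave 2778 and 952 (-1.48). Csf1r, the receptor for the growth factor that macrophages need, gave 5992 and 2526 (-1.18), with 1 of its other probes at -1.18 and 1 at -0.13. Csf1 itself, the ligand, which fibroblasts make, was not lower, at 55803 and 70963 (0.41). Young WT cells were the highest of the 3 samples for each of these receptor genes.

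Among macrophage products, Lyz1 and Lyz2 encode lysozyme, which digests bacterial walls. Lyz1 gave 14297 on the young array and 3222 on the old array (-2.09) and Lyz2 2017 and 422 (-2.19); the pair are near-identical copies whose probes may cross-read. Ctss, a lysosomal protease, gave 6500.0 on the young array and 1455 on the old array and 10.6 on the old p16-/- array (-2.10). C1qc, a chain of the complement initiator C1q, gave 1501 and 282 (-2.35). A few listed genes differed little by their brightest probe: Itgam, an integrin chain, gave 19992 and 19071 (-0.01), and Cd14, a co-receptor for lipopolysaccharide, 1403 and 1438 (0.10). A second Itgam probe gave -0.99, so the probes of Itgam disagree. Ptprc, which encodes the leukocyte marker CD45, was not well above background on either array. Of 8 defining macrophage markers fixed for this check, 7 were well above background on each array.

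For other cell types, namely T, B, NK and mast cells, neutrophils, endothelium, keratinocytes, Schwann cells, melanocytes, adipocytes and skeletal muscle, 22 defining markers were examined. Of these, 9 were well above background on the young array and 11 on the old array, and 3 reached a signal of 1000: Nkg7 (1169 and 1172), Krt14 (3189 and 1832) and Fabp4 (1531 and 2813). The B cell, mast cell and skeletal muscle markers were not well above background on either array. The Schwann marker S100b gave 339.8 and 749.9 (1.20). The neutrophil pair differed in direction, with S100a9 at 140.0 and 622 (2.21) and S100a8 at 410.3 and 324 (-0.28). These were all under a signal of 1000. Longer lists of the same cell types held bright genes too, such as Csf3r, a receptor of granulocyte precursors, at 90326 and 87075 (0.01), and Blnk, a B cell adaptor, at 24205 and 20538 (-0.17). Of 8 bright genes on the list of leukocytes other than macrophages, 2 were at least 2-fold higher, against 1.18% of all bright genes. Both were NK cell genes, Klra4 (2.13) and Klra7 (2.35), described below. Of its 20 genes counted, 6 were at least 2-fold higher and none lower, against 2.95% and 3.18% of all genes counted. On the keratinocyte list 7 of 9 bright genes had a ratio below 0, against 56.8% of all bright genes. Krtdap, a protein of differentiating keratinocytes, gave 2576 and 1138 (-1.12). The part of differing cell mixtures in the interferon values above was not tested.

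Chemokines, which attract leukocytes, were mixed. Of 14 bright members 1 was higher and 1 lower by at least 2-fold, against 1.18% and 0.562% of all bright genes. Of all 26 counted, dim ones included, 2 were higher and 7 lower by as much, against 2.95% and 3.18% of all genes counted. Among the dim ones Ccl6 gave 892 and 207 (-2.04), and Ccl4 276 and 86.7 (-1.61). Cxcl12, a fibroblast chemokine that retains blood stem cells in marrow, gave 849 on the young array and 1708 on the old array (1.07, second probe 1.11). Ccl9, a product of macrophages, gave 1569.7 and 690.4 (-1.12). The very abundant Ccl2, which recruits monocytes, gave 105283 and 124907 (0.31), and Ccl7 73944 and 95023 (0.42).

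**Figure D3:**
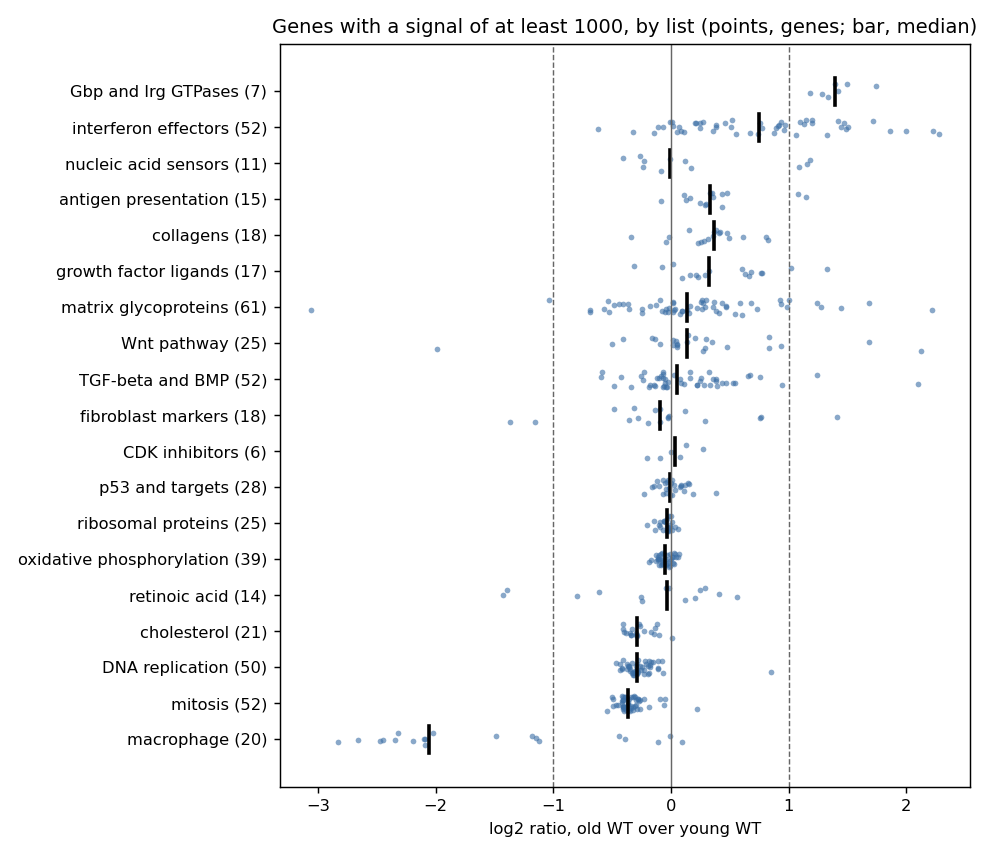
Log2 ratio of old WT over young WT (x axis) for each bright gene (point) of 19 gene lists, with the median of each list as a bar and the number of bright genes in brackets; dashed lines mark a 2-fold difference. Members of the Gbp and Irg list all lie above the upper dashed line, most of the macrophage list lies below the lower one, and the DNA replication and mitosis genes are shifted below 0 without reaching it.

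Genes of the cell cycle had small differences that ran in 1 direction. Of 50 bright DNA replication genes 49 had a ratio below 0, as did 51 of 52 bright mitosis genes, against 56.8% of all bright genes. None in either list was 2-fold apart. The medians were -0.29 and -0.36. Mcm6, a subunit of the helicase that unwinds DNA, gave 54697 on the young array and 42209 on the old array (-0.31). Pcna, the clamp that holds the polymerase on DNA, gave 34121 and 27533 (-0.25), and Rrm2, which makes DNA precursors, 56886 and 45520.3 (-0.26). Each of the 3 was lower in old WT cells by far less than 2-fold. In mitosis, Mki67, a coat protein of dividing chromosomes, gave 23594 and 16087 (-0.49, second probe -0.50). Plk1, a mitotic kinase, gave 23563 and 18166 (-0.31). Birc5, a subunit of the complex that corrects chromosome attachment, gave 41931 and 31512 (-0.35). All 6 had a higher signal on the old p16-/- array than on either WT array, with Mki67 at 25203.

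Inhibitors of cyclin-dependent kinases, which hold cells out of the cycle, stayed close to 0. None of the 6 bright members was 2-fold apart, with a median of 0.03. Cdkn2a, which encodes p16 and p19Arf, gave 62705 on the young array and 65464 on the old array (0.12, second probe 0.12). Its neighbour Cdkn2b, which encodes p15, gave 15158 and 17528 (0.27), and Cdkn1a, which encodes p21, 23709.8 and 22667 (-0.00). Over p53 and its targets 28 bright genes had a median of -0.01, and the feedback inhibitor Mdm2 gave 77995 and 79230.3 (0.08). On the old p16-/- array the Cdkn2a probe still gave 28065, and the labels do not say which part of the gene was removed. Whether the Cdkn2a probes read the p16 transcript apart from that of p19Arf was not tested.

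Cholesterol synthesis resembled the cell cycle in size. Of 21 bright genes 20 had a ratio below 0, against 56.8% of all bright genes. None of the 21 was 2-fold apart, and the median was -0.29. Hmgcs1, which makes HMG-CoA early in the pathway, gave 35640.1 on the young array and 27013 on the old array (-0.34), Idi1 26194 and 18903 (-0.41), and Sqle, which makes the first oxygenated sterol precursor, 28679 and 22828 (-0.27). For comparison, 39 oxidative phosphorylation genes had a median of -0.05 and 25 genes of ribosomal proteins and elongation factors one of -0.03. Ratios of those 39 lay between -0.19 and 0.07, and those of the 25 between -0.20 and 0.06. Genes of 1 list are transcribed in the same cells and are not independent replicates of the comparison.

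**Figure D4:**
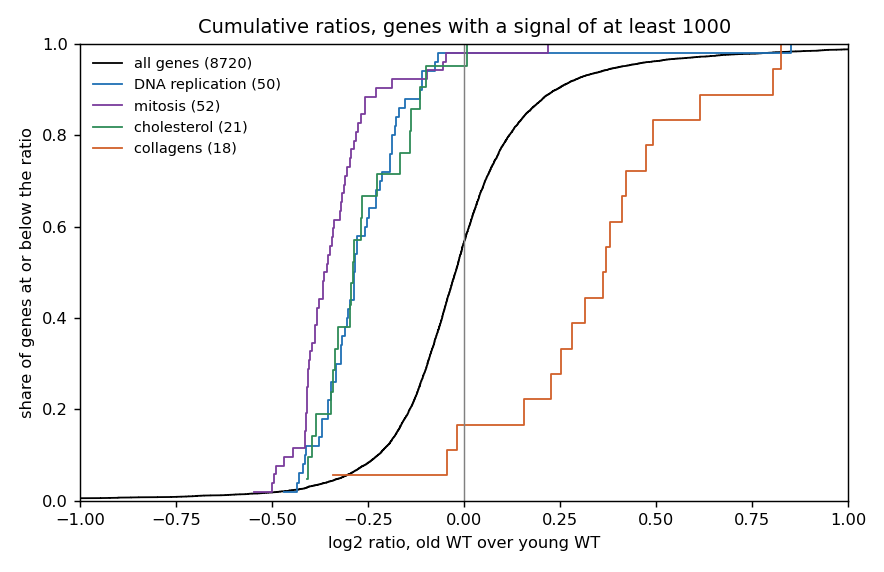
Cumulative share of bright genes (y axis) at or below each log2 ratio of old WT over young WT (x axis), for all 8720 bright genes and 4 lists; the x axis ends at a 2-fold difference on each side. The replication, mitosis and cholesterol curves lie to the left of the curve of all genes, with medians between -0.36 and -0.29, and the collagen curve lies to its right with a median of 0.36.

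Extracellular matrix genes included some of the largest differences in both directions. Collagens, the fibrous proteins of connective tissue, had 18 bright members, of which 15 had a ratio above 0, against 43.2% of all bright genes, and none was 2-fold apart (median 0.36). Col5a1, which sets the width of collagen fibrils, gave 34368 on the young array and 57526 on the old array (0.81). Of 61 bright matrix glycoproteins and proteoglycans 6 were higher and 2 lower by at least 2-fold, against 1.18% and 0.562% of all bright genes. Ltbp2, a protein of elastic microfibrils, gave 66986 and 151843 (1.24). Comp, a cartilage and tendon thrombospondin, gave 2414 and 6288 (1.44), while its relative Thbs4, also a tendon protein, gave 11696 and 1346 (-3.06) and 311 on the old p16-/- array. These 2 thrombospondins thus differed in opposite directions. Other matrix genes of cartilage and embryonic tissue were also apart. Hapln1, which links proteoglycans to hyaluronan in cartilage, gave 262 and 1166 (2.21). Edil3, a secreted integrin ligand, gave 1160.2 and 2695 (1.28), and Lama1, a laminin chain of early basement membranes, 4871 and 2271 (-1.04).

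Matrix receptors and proteases differed at single members. Of these, Itga11, a collagen-binding integrin chain of fibroblasts, had a signal of 1779 on the young array and 12490.3 on the old array and 23634 on the old p16-/- array. Its ratio of 2.87 was the only one at 2-fold among 21 bright integrin and adhesion genes. Of all bright genes 1.18% were at least 2-fold higher. Mmp2, a gelatinase, gave 3751 and 10794 (1.59), and Mmp13, a collagenase, 944 and 2724 (1.59). The inhibitors Timp1 (0.15), Timp2 (0.32) and Timp3 (0.40) stayed within 2-fold, and Timp3, the dimmest of them, gave 91685 and 116192. The list of fibroblast markers was mixed: Nt5e, an ecto-enzyme that makes adenosine, gave 1498 and 3810.2 (1.41), Pi16, a marker of an adventitial fibroblast population, 4903 and 2105 (-1.16), and Dlk1, a Notch-family ligand of progenitors, 1559.6 and 578 (-1.37).

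Several secreted growth factors and their carriers were higher in old WT cells. Insulin-like growth factors drive growth and survival, and their binding proteins hold them in the matrix. Igfbp5, a binding protein, had a signal of 1252 on the young array and 11658 on the old array and 3852 on the old p16-/- array. Its ratio of 3.28, a 9.72-fold difference, was the highest of any bright autosomal gene. Igf1, the ligand, gave 755 and 1556 (1.11), and 2 more probes gave 1.09 and 1.04. Pappa, a protease that frees the ligand from its binding proteins, gave 578 and 1142 (1.04). The receptors Igf1r (0.11) and Igf2r (-0.03) differed little, as did Igfbp4 (0.03). Of 17 bright ligands of the FGF, EGF, PDGF, VEGF and related families, 15 had a ratio above 0, against 43.2% of all bright genes. At least 2-fold higher were 2 of the 17, against 1.18% of all bright genes, and the median was 0.32. Fgf7, a fibroblast factor that acts on epithelium, gave 5493 and 13166 (1.32).

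Wnt and BMP signals pattern tissues in the embryo. Among Wnt antagonists, Dkk3 gave 4416 on the young array and 18478 on the old array (2.13) and Sostdc1 3767 and 911 (-1.99, second probe -1.88), so these 2 inhibitors differed in opposite directions. The 4 bright Wnt ligands and 8 bright receptors held no member at 2-fold. Bmp4 gave 669 and 2747 (2.10) and 3636 on the old p16-/- array. None of the 17 bright TGF-beta and BMP receptors and Smads, and none of the 13 bright target genes, was 2-fold apart. The matricellular protein Ccn5, listed as a Wnt target, gave 7488 and 23029.5 (1.68). The contractile genes Acta2 and Tagln had ratios of 0.22 and 0.25.

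Transcription factors that record a cell's position in the body differed in a few cases. None of the 14 bright Hox genes was 2-fold apart, including the tail-end gene Hoxb13, at 23776 on the young array and 31517 on the old array (0.47). Tbx1, a T-box factor of the pharyngeal region, gave 286 and 1511 (2.46), and 4015 on the old p16-/- array. It was highest on the old p16-/- array and lowest on the young array. The forkhead factors Foxf1 and Foxd1 gave 533 and 1549 (1.60), and 1046 and 2933 (1.55). Meox2, a homeobox factor of somites, gave 11226 and 4425 (-1.28). These 4 were all the bright members at 2-fold among 25 positional factors. They were 3 higher and 1 lower, against 1.18% and 0.562% of all bright genes. Of the WT arrays, Tbx1 and Foxf1 reached a signal of 1000 on the old array only.

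Small-molecule metabolism had its own members at 2-fold. Retinoic acid is made from vitamin A and bound in the cell by Crabp proteins. Aldh1a3, which makes it, gave 3109.7 on the young array and 1110.3 on the old array (-1.42), and Crabp1 6631 and 2415 (-1.40). Crabp2, a second binding protein, at 109212 and 120258, and the receptor Rarg, at 17858 and 20340.1, had ratios of 0.20 and 0.25. Aldh1a3 and Crabp1 were the only members at 2-fold among 14 bright retinoic acid genes. Of all bright genes 0.562% were at least 2-fold lower. Dio3, an imprinted enzyme that inactivates thyroid hormone, gave 1129.9 and 5299 (2.29). In prostanoid synthesis, Ptgis, which makes prostacyclin, gave 3505 and 948 (-1.82), while the cyclooxygenase Ptgs2 gave 17262 and 18347 (0.15). Alox5, which makes leukotriene precursors, gave 372 and 1347 (1.92). Of 42 bright antioxidant and glutathione genes 2 were higher and 1 lower by at least 2-fold, against 1.18% and 0.562% of all bright genes. Higher were the secreted peroxidase Gpx3, at 2464 and 9795 (2.05), and the extracellular superoxide dismutase Sod3, at 40224 and 86986 (1.17). The lower gene was the microsomal transferase Mgst1, at 25130.0 and 11557 (-1.06, second probe -1.04). The intracellular Sod1 (-0.09) and Gpx1 (-0.04) lay within 2-fold.

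**Figure D5:**
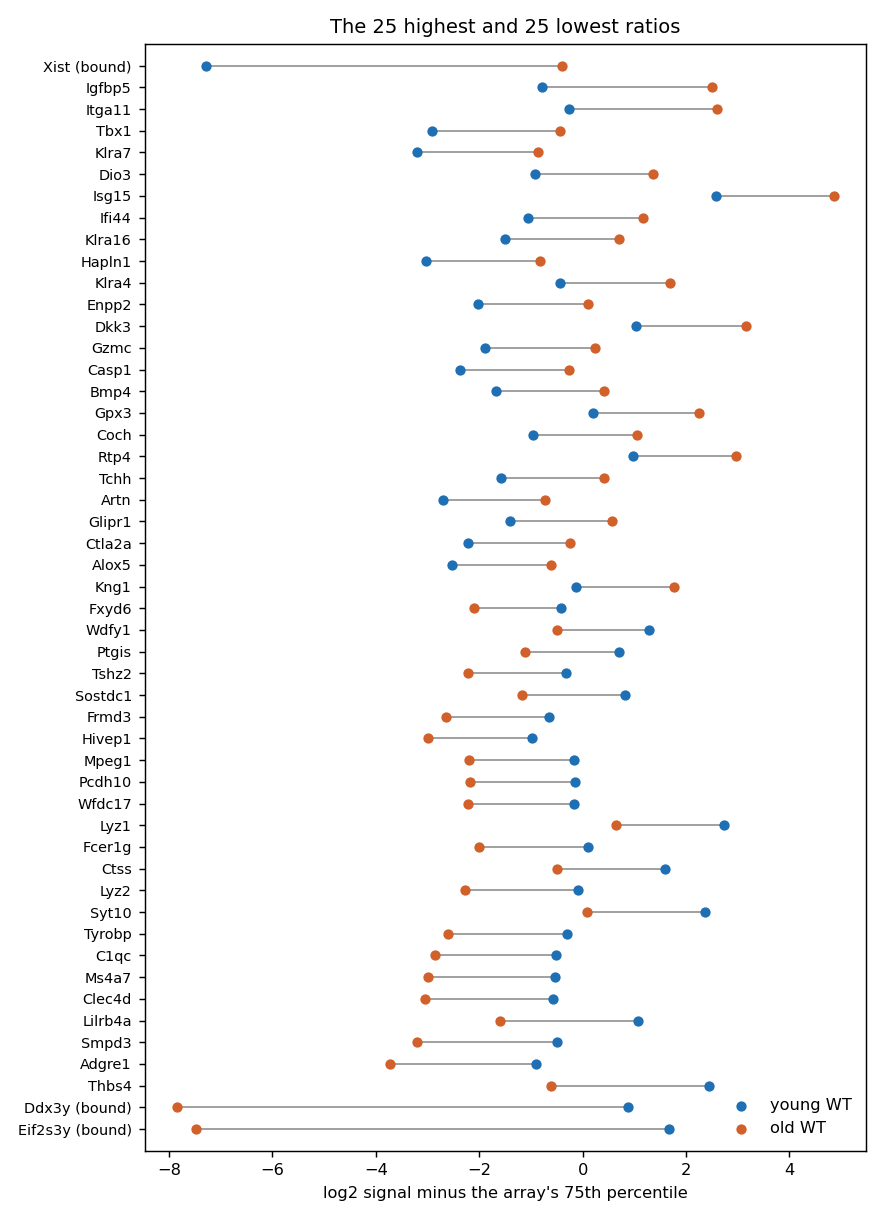
Log2 signal minus the array's 75th percentile (x axis) on the young WT and old WT arrays for the 25 bright genes with the highest and the 25 with the lowest ratio (y axis, ordered by ratio). Genes with Gm, Rik, LOC, BC, AI and similar names were left out before the choice. Xist, Ddx3y and Eif2s3y are well above background on 1 array only; their points show the measured signal, and their order follows the bound.

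Genes outside the lists filled part of both ends of that plot. Higher in old WT cells were Enpp2, which makes the lipid mediator lysophosphatidic acid (529 and 2218, 2.13), Casp1, the protease of the inflammasome (416 and 1722, 2.11), and the granzyme gene Gzmc (583 and 2437, 2.12). Tchh, a structural protein of the hair follicle, gave 719 and 2742 (1.99). Receptor genes of the Ly49 family of NK cells, which do belong to lists, were also in the plot: Klra4 at 1578 on the young array and 6619.7 on the old array (2.13), Klra16 at 755 and 3365 (2.22, with further probes at 2.34 and 2.29) and Klra7 at 232 and 1135 (2.35). The Ly49 genes are near-identical copies that differ in number between mouse strains, so which copy these probes read is uncertain. Of 14 bright genes on a list of those known to vary between strains, these 3 were the members at least 2-fold apart by their brightest probe. Of all bright genes 1.18% were at least 2-fold higher. On the same list Entpd4 gave 8005 and 14089 (0.88), with a second probe at 1.48. The labels name no strain. The NK marker Nkg7 had a ratio of 0.07 beside the Ly49 genes.

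Lower in old WT cells were Smpd3, a sphingomyelinase (1514 and 223, -2.70), and Syt10, a calcium sensor of vesicle release (11016 and 2184, -2.27). Syt10 gave 23668 on the old p16-/- array, so the old WT array was the lowest of the 3. Pcdh10, a protocadherin, gave 1928 on the young array and 451 on the old array (-2.03, second probe -2.12). Tshz2, a zinc finger factor, gave 1726 and 439.7 (-1.91). The 4 probes of Wdfy1 disagree: the brightest gave -1.77 and the others 1.35, 0.62 and -1.78.

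Agreement between probes could be read for 32 of the 152 bright genes at least 2-fold apart. In 27 of the 32 every further probe was also at least 2-fold apart in the same direction, and in 30 every further probe lay on the same side of 0. Exceptions were Wdfy1, Ddx58, Csf1r, Rtl6 (1.50 and 0.15) and Igsf10 (1.06 and 0.65).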

How the data were processed

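Each deposited file gives 1 array's spot intensities on a linear scale, from Cy3-labelled RNA, extracted with Agilent Feature Extraction per the file headers. The processed signal, background-subtracted and spatially detrended by the authors' scanner software per the file headers, was used. The arrays shared 1 slide and 1 scan. Control spots (1377) and spots with outlier flags (246 on each WT array) were left out and no spot was saturated. Log2 signals were averaged over a probe's spots, and the 75th percentile was subtracted. Accessions were matched to a RefSeq table of GRCm38.p6, which named 27450 of 39336 probes. That table gave names and chromosomes only, since the array was laid out on mm9 according to its header. The brightest probe over the WT arrays represented a gene. A probe above background on 1 array only gives a bound against the lowest level called well above background there (55.4 on the young array, 35.7 on the old).

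Genes named are the 25 highest and 25 lowest bright ratios, Cdkn2a and the factors, sex-linked genes, cell type markers, and per list up to 10 members 2-fold apart and 6 within 2-fold, the brightest first. The 25 highest and 25 lowest were taken among genes with an ordinary symbol, leaving out Gm, Rik, LOC, BC, AI and similar names. Ifit1, Rtl6, Igsf10, Apol9a, Apol9b and Sgk1 were named after their values were seen. Members and lists were chosen with earlier results of these data known. Of 1735 distinct listed symbols 37 were not matched, and the others stand for 1695 genes, as some are older names of a gene also listed. The deposited series table holds the same intensities: 39030 of 39030 probes spotted once agreed within a relative 0.0001 on each array, with column medians of 137 (young) and 135 (old). Alternatives included normexp (limma 3.58.1, offset 50), run on the median rather than the mean spot signal. A few genes are not reported here. The ratio code was tested on simulated data.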

Additional observations from a re-analysis of the deposited data

Results flagged for a closer look

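Probes with no gene name, which no comparison above uses, numbered 2244 at the same signal threshold of 1000, and 19 of these (0.847%) were 2-fold apart or more. Of these 13 were higher and 6 lower in old WT cells. They are given as values only, since their transcripts are not named here.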

How the results depend on the processing

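Counts over all genes depended on how dim genes were treated. The 429 higher and 463 lower genes became 235 and 217 with genes well above background on both WT arrays, 916 and 795 with no filter and no bounds, 257 and 272 with normexp background correction, 230 and 217 with the median over a gene's probes, and 103 and 49 with a signal of at least 1000. The signal at which a probe was called well above background also differed between the arrays, which limits ratios of dim genes. Counts of bright genes stayed within 1.5 times under every alternative run, as did all counts under quantile normalization, median scaling, the deposited series table and leaving out chromosomes X and Y (chosen after the data were seen). Of 12 list medians, the macrophage median moved by more than the single-spot SD under normexp alone, to -1.90, and the rest moved by less. Over the alternatives the interferon effector median ran from 0.72 to 0.75 and the mitosis median from -0.37 to -0.34. Of 391 values of the 50 highest and lowest genes, 390 kept their direction and a 2-fold difference. The exception was Wdfy1, at -0.58 with the median over its probes. Many of these values could hardly change. For a gene well above background on both arrays, the filter changes and leaving out chromosomes X and Y keep the same ratio. The deposited series table holds the same intensities, and the median over probes leaves a gene with 1 usable probe unchanged. With 1 array a group no replicate could be left out, and no paired analysis was possible because 1 array a side gives no spread.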
